A study of Homo sapiens with 12 samples.

Results

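The 52 genes described here encode proteins that make ribosomes in the nucleolus, and they were taken by name from the gene symbols of a table of raw RNA-seq counts. Of the 52, 51 had a count in the table's 20771 genes and all 51 passed the filter on low counts, among 16515 genes tested. BOP1 was not analysed here. The 51 genes comprised 20 of small-subunit processing, 15 of large-subunit assembly, 7 proteins of the small nucleolar ribonucleoprotein (snoRNP) core, 4 of RNA polymerase I and 5 nucleolar proteins with several roles. The RNA came from EW8-RRM1-KO and TC71-RRM1-KO, derivatives of human Ewing sarcoma cell lines in which Cas9 disrupted the endogenous RRM1 gene while a codon-optimized RRM1 transgene depended on doxycycline. RRM1 is the catalytic subunit of ribonucleotide reductase, which makes the deoxynucleotides for DNA synthesis. All libraries therefore shared the knockout and the transgene. The 12 libraries formed 4 groups of 3, namely EW8 and TC71 at 0 h, with doxycycline present, and both lines at 48 h, after doxycycline had been absent for 48 h. The knockout lines were single-cell clones by the study's methods, so a property of a line and one of its clone cannot be told apart.

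Ribosome production begins when RNA polymerase I transcribes the ribosomal RNA genes into a long precursor. Guide snoRNPs modify that precursor, processome subcomplexes fold and cleave it on the small-subunit side, and a separate set of assembly factors builds the large subunit, before late factors accompany both particles to the cytoplasm. Ribosome production is a major cost of a growing cell, and many of its genes are known targets of the transcription factor c-Myc.

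Library totals ranged from 18468485 to 35698991 counts, and every library held 1.01% to 1.43% of its counts in the 51 genes. No source said that replicates came from separate cultures, so the p-values measure the spread between libraries, which may be technical. The table's RRM1 count was higher at 48 h in EW8 (log2 fold change 2.88) and in TC71 (0.65). No source used here said whether reads of the codon-optimized transgene were counted, so this count does not check the labels. The cause of its rise was not tested. MYC, which encodes c-Myc, was higher at 48 h in EW8 (log2 fold change 0.95, edgeR adjusted p = 6.31e-21), and its value in TC71 was −0.05 (edgeR adjusted p = 0.356). These values are of RNA and do not give the level of the protein. By the study's immunoblots, the c-Myc protein was lower in both lines after removal of doxycycline. The study also found c-Myc target genes enriched among the downregulated genes of both lines. In EW8 the MYC RNA and the reported protein thus moved in opposite directions. All 6 Ewing sarcoma markers examined were present in every library, with at least 128 counts, while PTPRC of blood cells had at most 5 counts, CDH5 of endothelium at most 6 and EPCAM of epithelium at most 43. The remaining 5 markers of other cell types were not analysed here.

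Most of these genes were downregulated in both lines after removal of doxycycline. At 48 h 35 of the 51 genes were downregulated in EW8 and 9 were upregulated, at an edgeR adjusted p below 0.05, against 31.6% of all genes tested that were lower and 37.0% that were higher. In TC71 42 were downregulated and only RRP12 was upregulated, against 19.2% and 22.9% of all genes. The median log2 fold change of the 51 genes was −0.26 in EW8 and −0.21 in TC71, where the medians of all genes tested were 0.03 and −0.00. In these bulk samples, fewer cells expressing a gene and less RNA of it per cell cannot be told apart.

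Most of the changes were small. Only 3 of the 51 genes passed a fold of 2 in EW8 at an adjusted p below 0.05, NPM1 and NCL downward and RRP12 upward, against 17.2% of all genes. Without replicate 2 of EW8 at 0 h, DKC1 (log2 fold change −1.03) and NOP16 (−1.02) passed as well, and without replicate 3 NOP16 did (−1.01). In TC71 the changes lay between −0.57 (NOP16) and 0.19 (RRP12), while 4.12% of all genes passed a fold of 2. The libraries of the 2 times did not overlap in CPM (counts scaled by TMM factors to a common library size) for 35 genes that were lower and 9 that were higher in EW8, against 33.2% and 37.9% of all genes. In TC71 the same held for 44 lower genes and 1 higher gene, against 23.7% and 25.9%.

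The lines shared the direction for most members. There were 30 genes downregulated in both lines, against 14.3% of all genes, 1 upregulated in both (RRP12), against 17.6%, and 5 that were upregulated in EW8 and downregulated in TC71 (UTP14A, DDX10, WDR74, TAF1D and DDX21), against 2.82% with opposite calls. With total counts in place of TMM factors 22 were called lower in both lines, against 9.72% of all genes, and 6 in opposite directions, against 2.73%, UTP14A having left the latter group and NOP58 and POLR1A having joined it. Across the 51 genes the responses of the lines, which share no library, had a Pearson correlation of 0.593, given as a description because genes are not independent replicates, and over all genes tested it was 0.695.

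**Figure D1:**
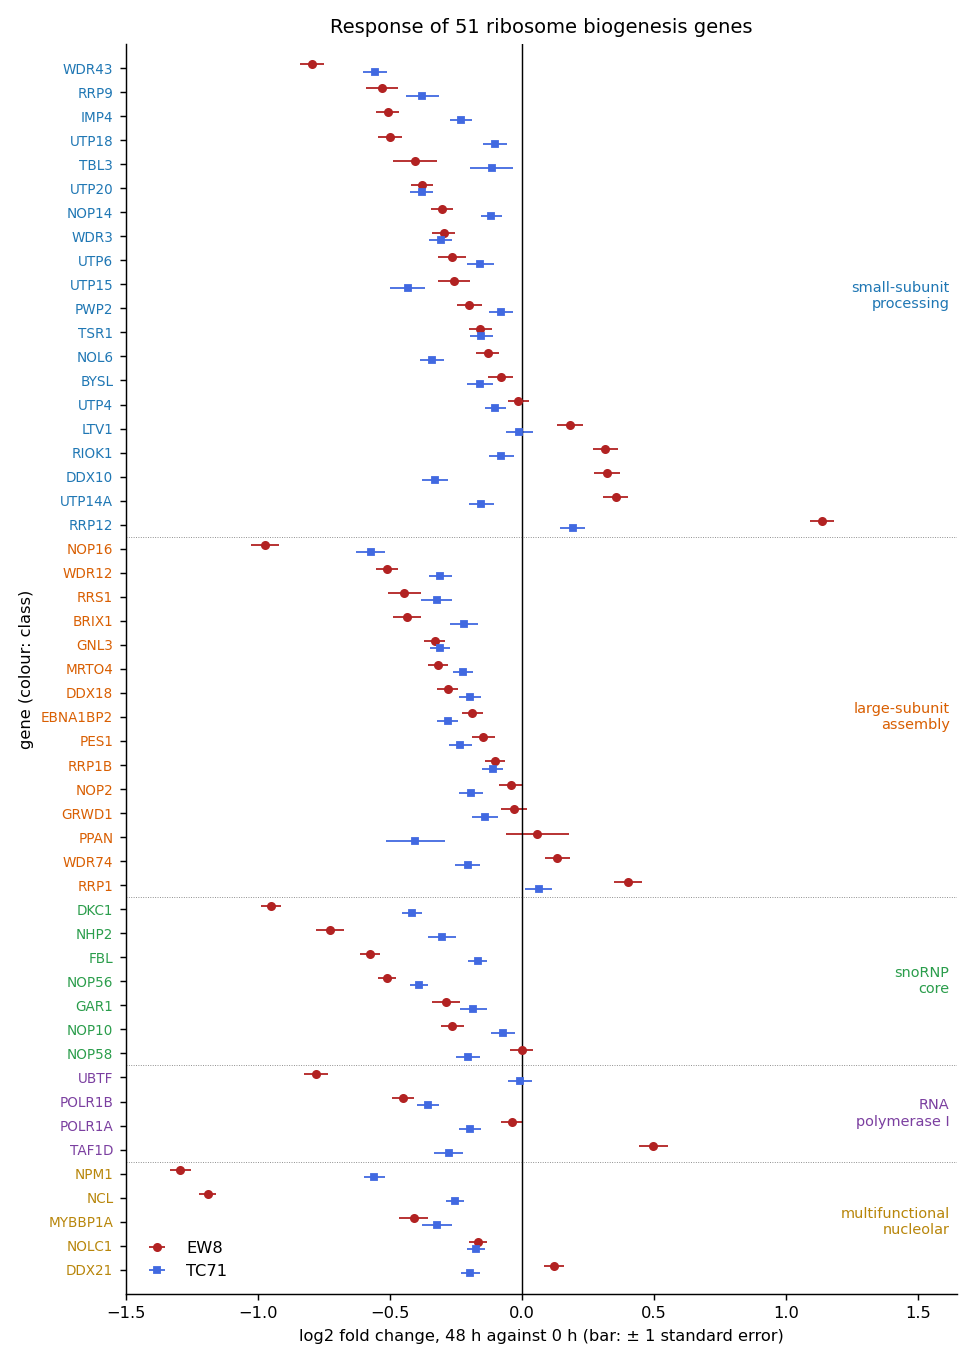
Log2 fold change at 48 h against 0 h (horizontal axis) of the 51 genes, named on the vertical axis and colored by class, with red circles for EW8, blue squares for TC71 and bars of 1 standard error. Most points lie left of 0 in both lines, and RRP12 (1.14 in EW8) lies farthest to the right.

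How large the group's fall appears depends on the scaling of the libraries. With total counts in place of TMM factors the median of all genes tested moved up by 0.13 in EW8 and by 0.05 in TC71, and the members called became 28 lower and 12 higher in EW8 and 35 lower and 1 higher in TC71. All genes tested were then called lower in 24.4% and higher in 43.6% of cases in EW8, and in 14.2% and 28.0% in TC71. The distance of the members' median from that of all genes was −0.295 with TMM and −0.296 with total counts in EW8, and −0.204 under both in TC71. With total counts the sign turned positive in EW8 for UTP4, BYSL, NOP2, GRWD1, NOP58 and POLR1A, which had not passed the test, and for RRP1B, from −0.10 to 0.02, and of these UTP4 (0.11, edgeR adjusted p = 0.00791), NOP58 and POLR1A were then called higher. In TC71 it turned positive for LTV1 and UBTF. The calls lost with total counts were those of NOL6, PWP2, TSR1, PES1, RRP1B, EBNA1BP2 and NOLC1 in EW8 and of NOP14, UTP4, UTP6, UTP14A, BYSL, RRP1B and GRWD1 in TC71.

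**Figure D2:**
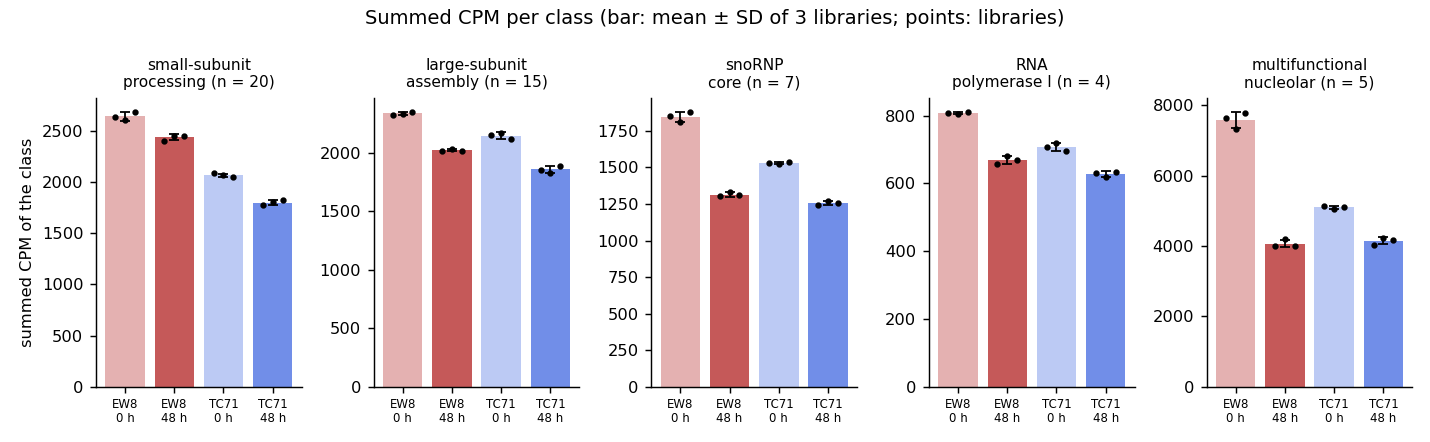
Summed CPM of each class (vertical axes, starting at 0) in the 4 groups, with bars for the mean, error bars for the SD of 3 libraries and points for libraries. The sums of the multifunctional genes fell from 7588 to 4069 in EW8, mostly through NPM1 and NCL, and those of small-subunit processing from 2646 to 2440.

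As a share of all counts, the 51 genes together went from 1.41% to 1.06% in EW8 and from 1.17% to 1.02% in TC71 (means of 3 libraries). The classes contributed unequally. In EW8 the multifunctional genes went from 0.703% to 0.411% of counts, the snoRNP core from 0.171% to 0.133%, large-subunit assembly from 0.217% to 0.204% and RNA polymerase I from 0.0748% to 0.0674%. Most of the multifunctional fall in EW8, and of that of the 51 genes together, was the fall of NPM1 and NCL, the members with the highest counts. The small-subunit share was 0.245% at 0 h and 0.246% at 48 h, where its summed CPM fell from 2646 ± 41.2 to 2440 ± 29.4 (SD, n = 3), so that the direction of this sum depended on the scaling. In TC71 all 5 shares were lower at 48 h. The median log2 fold change in EW8 was −0.51 for the snoRNP core, −0.41 for the multifunctional genes, −0.24 for RNA polymerase I, −0.23 for small-subunit processing and −0.19 for large-subunit assembly. In TC71 the medians lay closer together, from −0.25 for the multifunctional genes to −0.16 for small-subunit processing. With total counts the EW8 medians of RNA polymerase I, small-subunit processing and large-subunit assembly were −0.12, −0.10 and −0.063, and with DDX21 and the other multifunctional genes moved to the class of their next role that of RNA polymerase I was −0.41. The classes were not tested against each other.

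The promoters of the members were examined for a sequence that c-Myc and related factors recognize, the canonical E-box CACGTG, which reads the same on both strands. RefSeq promoters (GRCh38.p14, from 250 bases before to 50 after a RefSeq transcription start, of which a gene can have several) were matched for 45 of the 51 genes, and 22 of these 45 (48.9%) held CACGTG. The same was true of 12.1% of 11987 genes of the count table with a promoter, which were not limited to those that passed the filter on low counts. Both shares count a gene once if any of its promoters held the motif. Counted per promoter, which is another unit, 7.26% of all 35116 promoters held it. The motif was in 12 of 19 small-subunit promoters (63.2%), 5 of 12 of large-subunit assembly, 3 of 6 of the snoRNP core, 2 of 4 of the multifunctional genes and 0 of 4 of RNA polymerase I. Of the 26 copies in the members, 16 (61.5%) began at or after the start, compared with 165 of 1668 copies (9.89%) in the genes of the table.

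In 7 members (15.6% of 45, against 1.18% of the table's genes with a promoter) a copy began within 10 bases of the start, and these promoters are shown to let their surroundings be compared. Each line gives 44 bases of the strand that the gene is read from, with the E-box in capitals, from UTP18 (chr17:51260520-51260563, + strand), UTP20 (chr12:101280065-101280108, + strand), WDR43 (chr2:28894640-28894683, + strand), PWP2 (chr21:44107370-44107413, + strand), RRP9 (chr3:51941896-51941939, − strand), GNL3 (chr3:52686008-52686051, + strand) and FBL (chr19:39846360-39846403, − strand).
UTP18: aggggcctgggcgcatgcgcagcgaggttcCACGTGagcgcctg
UTP20: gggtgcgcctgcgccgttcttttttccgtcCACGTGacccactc
WDR43: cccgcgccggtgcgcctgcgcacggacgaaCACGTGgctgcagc
PWP2: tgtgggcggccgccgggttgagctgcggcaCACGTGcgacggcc
RRP9: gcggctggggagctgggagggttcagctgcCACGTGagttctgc
GNL3: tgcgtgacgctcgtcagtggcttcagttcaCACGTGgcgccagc
FBL: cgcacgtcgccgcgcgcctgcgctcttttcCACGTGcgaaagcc
The motif began at +5, −10, +4, +2, −5, +7 and +7 bases from the start in that order.

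**Figure D3:**
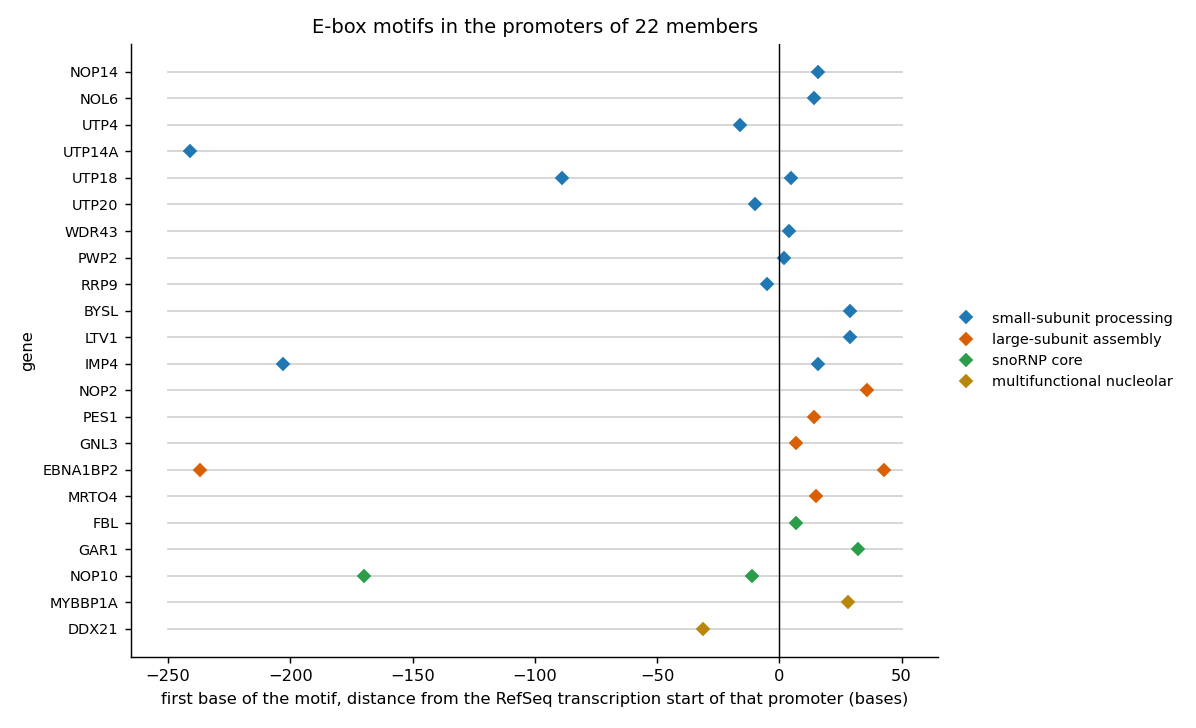
First base of each CACGTG copy relative to the RefSeq transcription start of its promoter (horizontal axis, bases) in the 22 members that hold it (vertical axis), colored by class, with grey lines for the promoter stretch searched. Of the 26 copies, 16 lie at or to the right of the start and 10 to the left.

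Members with and without the E-box were then set side by side. Of the 22 with it, 16 were downregulated in EW8 and 18 in TC71, with median log2 fold changes of −0.28 and −0.19. Of the 23 promoters without it, the genes of 15 and 19 were downregulated, with medians of −0.30 and −0.28. A match is a description of the letters in this stretch and no evidence of binding. CCGGAAGT, the core recognized by ETS factors such as EWS-FLI, was searched on both strands after the first results had been seen, and it was in 12 of 45 member promoters (26.7%) and in 8.85% of those of the table's genes. Of the 12 genes with it, 5 were downregulated and 4 upregulated in EW8 and 8 were downregulated in TC71, with median log2 fold changes of −0.02 and −0.16. Of the 33 without it, 26 were downregulated and 4 upregulated in EW8 and 29 were downregulated in TC71, with medians of −0.38 and −0.25, and this split was not tested. For comparison, 31.6% of all genes tested were lower and 37.0% higher in EW8, and 19.2% were lower in TC71. By their letters, copies of the 2 motifs cannot overlap.

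Among the 20 genes of small-subunit processing, 13 were downregulated and 5 upregulated in EW8, and 14 and 1 in TC71, and with total counts 10 and 6 in EW8 and 9 and 1 in TC71. The UTP-A subcomplex, which is the first to bind the nascent precursor, was represented by WDR43, UTP15 and UTP4. WDR43 had the largest fall of the class in both lines. Its CPM was 311, 283 and 316 at 0 h, then 168, 182 and 176 at 48 h in EW8, and 235, 220 and 240 against 152, 163 and 156 in TC71. The groups did not overlap in either line, and the log2 fold change was −0.79 (SE 0.05, edgeR adjusted p = 3.82e-17) in EW8 and −0.56 (SE 0.04, edgeR adjusted p = 3.64e-12) in TC71. UTP15 went from 26.9, 25.8 and 27.6 CPM to 18.6, 20.7 and 20.1 CPM in TC71, a log2 fold change of −0.43 (SE 0.07, edgeR adjusted p = 2.37e-06), and it was also downregulated in EW8 (−0.26). UTP4 was lower in TC71 (−0.10), a call lost when any of 5 TC71 libraries was left out (the exception being replicate 2 at 48 h), and did not pass the test in EW8 (−0.01).

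All 5 members of the UTP-B subcomplex, which binds next to the region where the precursor is first cut, were downregulated in EW8, from −0.50 for UTP18 to −0.20 for PWP2. In TC71 2 of the 5 passed the test, WDR3 (−0.31) and UTP6 (−0.16), while UTP18, TBL3 and PWP2 had values of −0.10, −0.12 and −0.08. With total counts the EW8 value of PWP2 was −0.07 (edgeR adjusted p = 0.165) and the TC71 value of UTP6 −0.11 (edgeR adjusted p = 0.0805), and the latter call was also lost without replicate 3 of TC71 at 0 h or replicate 1 at 48 h. UTP18 fell more in EW8 than in TC71, with a difference of −0.40 (edgeR adjusted p = 4.38e-06). Among the proteins that act with the guide snoRNP of the processome, RRP9 stood at 50.1, 57.8 and 51.9 CPM at 0 h, then 36.6, 39.0 and 34.6 at 48 h in EW8. RRP9 changed by −0.53 (SE 0.06, edgeR adjusted p = 1.89e-09) there and by −0.38 in TC71, without overlap between times in either line. IMP4, a partner of the same particle, changed by −0.51 in EW8 and −0.23 in TC71. UTP20, a large scaffold protein, was downregulated by the same value, −0.38, in both lines.

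Among the 5 members that accompany late small-subunit particles, 3 were upregulated in EW8 (RRP12, RIOK1 and LTV1), 1 was downregulated (TSR1, −0.16, or −0.03 with total counts, edgeR adjusted p = 0.500) and BYSL had a value of −0.08. RRP12, which takes part in the maturation and export of the particles, was measured at 102, 113 and 104 CPM at 0 h and at 231, 231 and 239 CPM at 48 h in EW8. In TC71 it was at 115, 119 and 107 CPM at 0 h and at 133, 124 and 132 CPM at 48 h. RRP12 was higher at 48 h in every library of both lines, with a log2 fold change of 1.14 (SE 0.05, edgeR adjusted p = 4.11e-21) in EW8 and 0.19 (SE 0.05, edgeR adjusted p = 0.00106) in TC71. An antisense transcript is annotated over exons of RRP12. RIOK1, a kinase of the late particle, rose by 0.32 in EW8 and had a value of −0.08 in TC71 (edgeR adjusted p = 0.205), and LTV1, an export adaptor, rose by 0.18 in EW8 with −0.01 in TC71. Without replicate 2 of EW8 at 0 h the EW8 call of LTV1 was lost (edgeR adjusted p = 0.0553).

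A further pair of small-subunit genes moved in opposite directions in the lines. UTP14A, which activates a helicase of the processome, was at 90.3, 87.6 and 96.7 CPM at 0 h, then 115, 118 and 119 at 48 h in EW8, and at 84.3, 83.6 and 84.2 against 71.4, 79.7 and 75.5 in TC71. DDX10, an RNA helicase, was at 92.7, 91.7 and 98.1 CPM and then 112, 119 and 123 in EW8, and at 78.4, 71.6 and 72.0 and then 56.3, 59.8 and 60.8 in TC71. The times did not overlap for either gene in either line. The log2 fold changes were 0.36 and −0.15 for UTP14A and 0.32 and −0.33 for DDX10, with differences between the lines of 0.51 (SE 0.07, edgeR adjusted p = 1.14e-07) and 0.65 (SE 0.07, edgeR adjusted p = 2.34e-09). The TC71 call of UTP14A was lost with total counts (−0.10, edgeR adjusted p = 0.0646) and without replicate 1 of TC71 at 48 h (edgeR adjusted p = 0.0757).

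Among the 15 genes of large-subunit assembly, 10 were downregulated and 2 upregulated in EW8, and 14 were downregulated in TC71, the exception being RRP1 (0.06, edgeR adjusted p = 0.327). NOP16, a factor of early large-subunit particles, had the largest fall of the class in both lines. It stood at 77.7, 74.1 and 75.2 CPM at 0 h, then at 37.1, 39.1 and 39.3 at 48 h in EW8, and at 43.2, 45.1 and 46.3 against 30.9, 28.5 and 31.0 in TC71. No library at 48 h reached the 0 h level of its line, and the log2 fold changes were −0.97 (SE 0.05, edgeR adjusted p = 1.13e-17) and −0.57 (SE 0.05, edgeR adjusted p = 1.59e-10). WDR12 and PES1, which form a complex with BOP1, were downregulated in both lines. WDR12 went from 197, 185 and 195 CPM to 130, 142 and 133 CPM in EW8, a log2 fold change of −0.51 (SE 0.04, edgeR adjusted p = 1.19e-12), and changed by −0.31 in TC71. PES1 changed by −0.15 in EW8 and −0.23 in TC71, and with total counts its EW8 value was −0.02 (edgeR adjusted p = 0.673).

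The assembly factors RRS1, BRIX1, GNL3, MRTO4, DDX18 and EBNA1BP2 were all downregulated in both lines, with log2 fold changes from −0.45 (RRS1) to −0.19 (EBNA1BP2) in EW8 and from −0.32 (RRS1) to −0.20 (DDX18) in TC71. With total counts EBNA1BP2 had −0.06 in EW8 (edgeR adjusted p = 0.146). RRP1, in contrast, was upregulated in EW8, from 87.0, 99.4 and 92.6 CPM to 122, 118 and 128 CPM (log2 fold change 0.40, SE 0.05, edgeR adjusted p = 5.79e-08). Its paralog RRP1B changed by −0.10 and −0.11, and its call was lost without replicate 1 of EW8 at 48 h in EW8, and in TC71 without replicate 2 at 0 h or replicate 1 or 2 at 48 h. WDR74, which works with the ATPase that removes early factors, was at 72.1, 76.8 and 72.6 CPM at 0 h, then at 80.6, 79.1 and 83.1 at 48 h in EW8 (log2 fold change 0.13, SE 0.05, edgeR adjusted p = 0.0132), with a log2 fold change of −0.21 in TC71. The EW8 call of WDR74 was lost when replicate 1 or 3 of EW8 at 0 h or replicate 3 at 48 h was left out, and with upper-quartile factors (0.09, edgeR adjusted p = 0.0727). PPAN, the least abundant member, was at 10.8, 10.7 and 9.18 CPM at 0 h and at 8.36, 7.65 and 7.24 CPM at 48 h in TC71 (log2 fold change −0.40, SE 0.11, edgeR adjusted p = 0.00362), and its EW8 value of 0.06 had an SE of 0.12. PPAN shares exons with P2RY11 and with an annotated read-through of both genes, so its count is uncertain.

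In the snoRNP core 6 of the 7 genes were downregulated in each line and the remaining values were −0.00 for NOP58 in EW8 and −0.07 for NOP10 in TC71. Of 9 further genes of this class that are no members, 2 were downregulated in each line, as given further on. The 4 box H/ACA proteins, which carry the guides for pseudouridine formation and also belong to telomerase, were all downregulated in EW8, with a median of −0.51. DKC1, the pseudouridine synthase of these particles, fell most. Its CPM was 394, 360 and 393 at 0 h, then 199, 199 and 196 at 48 h in EW8, and 318, 308 and 311 against 234, 235 and 233 in TC71. The separation was complete in both lines, with a log2 fold change of −0.95 (SE 0.04, edgeR adjusted p = 4.68e-21) in EW8 and −0.42 (SE 0.04, edgeR adjusted p = 7.96e-11) in TC71. NHP2 went from 70.9, 73.8 and 77.4 CPM to 46.5, 43.0 and 45.0 CPM in EW8 (log2 fold change −0.73, SE 0.05, edgeR adjusted p = 2.13e-14) and changed by −0.30 in TC71. GAR1 and NOP10 changed by −0.29 and −0.26 in EW8.

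The box C/D proteins, which carry the guides for methylation of ribosomal RNA, had unequal values in EW8. FBL, the methyltransferase, changed by −0.58 (SE 0.04, edgeR adjusted p = 7.79e-16) and NOP56 by −0.51 (SE 0.03, edgeR adjusted p = 3.48e-15), whereas NOP58, the partner of NOP56, was at 278, 263 and 275 CPM at 0 h and 259, 284 and 273 at 48 h, with overlapping libraries (−0.00, SE 0.04, edgeR adjusted p = 0.981). With total counts NOP58 was higher, by 0.12 (edgeR adjusted p = 0.0102). In TC71 all 3 were downregulated, NOP56 by −0.39, from 468, 470 and 473 CPM to 356, 371 and 352 CPM, NOP58 by −0.20 and FBL by −0.17.

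Of the 4 genes of RNA polymerase I, 2 were downregulated and 1 upregulated in EW8, and 3 were downregulated in TC71. POLR1B, a core subunit of the enzyme, was downregulated in both lines, with 182, 172 and 186 CPM at 0 h, then 127, 137 and 132 at 48 h in EW8 and 164, 157 and 170 against 128, 128 and 128 in TC71. Its log2 fold change was −0.45 (SE 0.04, edgeR adjusted p = 3.15e-11) in EW8 and −0.36 (SE 0.04, edgeR adjusted p = 2.72e-08) in TC71, and the difference between them was −0.09 (SE 0.06, edgeR adjusted p = 0.205). Without replicate 2 of EW8 at 0 h that difference was −0.16 (edgeR adjusted p = 0.0174) and passed the test. POLR1A, the largest subunit, was lower in TC71 (−0.20) and had a value of −0.04 in EW8, which was 0.09 with total counts (edgeR adjusted p = 0.0493).

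The promoter factors of RNA polymerase I responded differently in the lines, by differences of −0.77 and 0.77 that are tested further on. UBTF, which opens the ribosomal RNA genes for transcription, was at 268, 274 and 278 CPM at 0 h, then 166, 164 and 148 at 48 h in EW8, and at 231, 251 and 225 against 241, 227 and 236 in TC71. The EW8 libraries of the 2 times were far apart and those of TC71 overlapped. The log2 fold change was −0.78 (SE 0.05, edgeR adjusted p = 7.36e-17) in EW8 and −0.01 (SE 0.04, edgeR adjusted p = 0.910) in TC71. TAF1D, a subunit of the selectivity factor SL1, went from 76.1, 69.7 and 72.1 CPM to 97.8, 102 and 108 CPM in EW8 and from 68.6, 68.7 and 76.5 CPM to 56.8, 63.6 and 56.3 CPM in TC71. It was thus higher in every 48 h library of EW8 and lower in every one of TC71, with log2 fold changes of 0.50 (SE 0.05, edgeR adjusted p = 7.39e-10) and −0.28 (SE 0.06, edgeR adjusted p = 0.000119). Exons of 3 genes on the opposite strand overlap those of TAF1D, and the strand setting of the counting was not given in the sources used here.

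NPM1 and NCL, the abundant nucleolar proteins nucleophosmin and nucleolin, had the largest falls of all 51 genes in EW8. NPM1, a histone chaperone that also acts in large-subunit maturation and export (chr5:171387116-171411810, + strand), was at 2100, 1948 and 2166 CPM at 0 h, then 830, 883 and 823 at 48 h in EW8, and at 1150, 1084 and 1136 against 737, 784 and 766 in TC71. NCL, which binds nascent ribosomal RNA (chr2:231453531-231483641, − strand), was at 4024, 3887 and 4122 CPM and then 1740, 1819 and 1712 in EW8, and at 2530, 2511 and 2528 and then 2062, 2169 and 2122 in TC71. For both genes all 48 h libraries lay below all 0 h libraries of their line. The log2 fold changes were −1.29 (SE 0.04, edgeR adjusted p = 9.97e-25) in EW8 and −0.56 (SE 0.04, edgeR adjusted p = 9.87e-14) in TC71 for NPM1, and −1.19 (SE 0.03, edgeR adjusted p = 1.33e-25) and −0.25 (SE 0.03, edgeR adjusted p = 1.57e-07) for NCL. As NPM1 has many near-identical pseudogene copies, its count depends on how shared reads were treated.

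The other multifunctional genes changed less than NPM1 and NCL in EW8. MYBBP1A, a nucleolar binding partner of several transcription factors, went from 137, 159 and 141 CPM to 122, 111 and 116 CPM in TC71, with log2 fold changes of −0.32 (SE 0.06, edgeR adjusted p = 4.94e-05) there and −0.41 in EW8. NOLC1, a chaperone of snoRNPs, changed by −0.17 in both lines, and with total counts its EW8 value was −0.04 (edgeR adjusted p = 0.219). DDX21, a helicase that links transcription by RNA polymerases with processing of ribosomal RNA, was at 779, 726 and 768 CPM and then 797, 843 and 832 in EW8 and at 678, 657 and 679 and then 562, 597 and 600 in TC71. Its log2 fold change was 0.12 (SE 0.04, edgeR adjusted p = 0.00408) in EW8 and −0.20 (SE 0.04, edgeR adjusted p = 5.62e-05) in TC71. Without replicate 2 of EW8 at 0 h the EW8 value was 0.06 (edgeR adjusted p = 0.140).

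**Figure D4:**
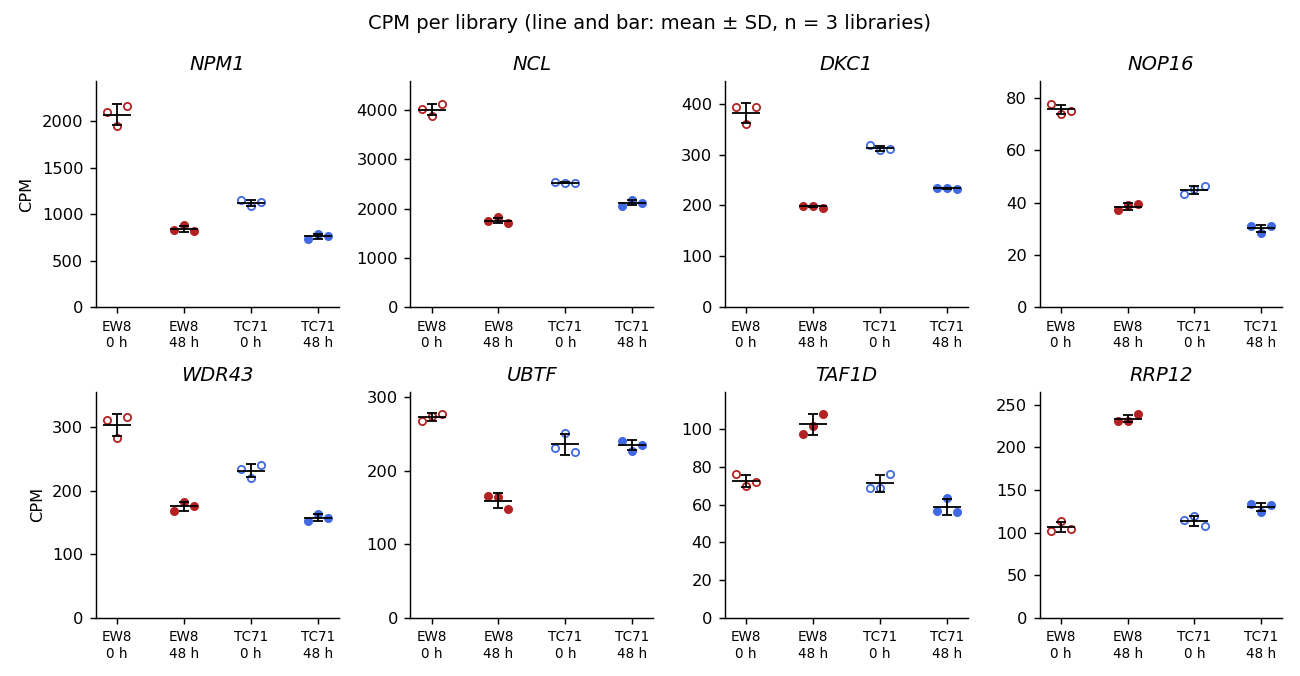
CPM (vertical axes, starting at 0) of 8 members in the 12 libraries, open points for 0 h and filled points for 48 h, red for EW8 and blue for TC71, with lines and bars for the mean ± SD of 3 libraries. UBTF is lower at 48 h in EW8 while its TC71 libraries overlap, and TAF1D is higher at 48 h in EW8 and lower in TC71.

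Whether the response differed between the lines was tested directly, as the EW8 change minus the TC71 change. This difference uses the libraries of both responses and is not independent of them. It was below 0 for 16 genes and above 0 for 14, at an edgeR adjusted p below 0.05, against 22.4% and 25.7% of all genes tested, and 21 did not pass. The differences lay between −0.94 and 0.95, while 8.26% of all genes had a called difference above a fold of 2. With total counts 10 were below 0 and 19 above, against 17.8% and 30.4% of all genes. The lowest differences were −0.94 for NCL (SE 0.05, edgeR adjusted p = 2.94e-17), −0.77 for UBTF (SE 0.06, edgeR adjusted p = 4.85e-12) and −0.73 for NPM1 (SE 0.05, edgeR adjusted p = 6.07e-13). The highest were 0.95 for RRP12 (SE 0.07, edgeR adjusted p = 9.87e-14), 0.77 for TAF1D (SE 0.08, edgeR adjusted p = 4.82e-10) and 0.65 for DDX10. In the snoRNP core 5 of 7 genes fell more in EW8, among them DKC1 (−0.53), NHP2 (−0.42) and FBL (−0.41), and NOP58 differed the other way (0.20, not called without replicate 2 of EW8 at 0 h, edgeR adjusted p = 0.0587). In small-subunit processing 5 were below and 6 above 0, and in large-subunit assembly 3 and 4. With total counts these became 3 and 8, and 1 and 7, and in the snoRNP core 3 of 7 fell more in EW8, NOP56 (edgeR adjusted p = 0.386) and NOP10 (edgeR adjusted p = 0.112) having lost the call.

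**Figure D5:**
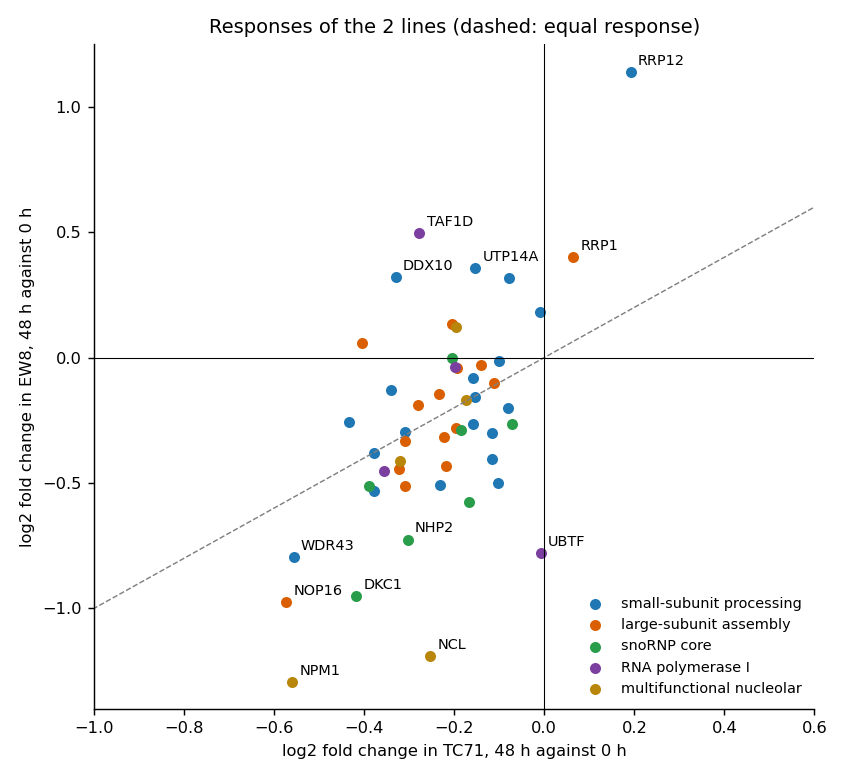
Log2 fold change at 48 h against 0 h in TC71 (horizontal axis) and EW8 (vertical axis) of the 51 genes, colored by class, with a dashed line where both would be equal. NPM1, NCL, DKC1 and UBTF lie below the line, RRP12, TAF1D and DDX10 above it, and the axes differ in range.

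Before removal of doxycycline, most members were more abundant in EW8 than in TC71. At 0 h 38 of 51 were higher in EW8 and 9 lower, against 32.8% and 32.9% of all genes tested, and the median log2 difference was 0.24 where that of all genes was −0.01. This comparison shares its libraries with both responses. With total counts the median of all genes moved by −0.13 and the calls became 27 higher and 11 lower, against 23.7% and 42.0% of all genes. UTP14A, called at 0.13, had a value of −0.01 under that scaling, FBL, not called with TMM, was called lower (−0.10, edgeR adjusted p = 0.00957), and WDR74 and TAF1D turned negative without passing the test. In CPM the libraries of the lines did not overlap for 38 higher and 9 lower members, against 34.0% and 34.3% of all genes.

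By class, 17 of 20 small-subunit genes were higher in EW8, compared with 8 of 15 for large-subunit assembly, 6 of 7 for the snoRNP core, 3 of 4 for RNA polymerase I and 4 of 5 for the multifunctional genes. With total counts these were 13 of 20, 6 of 15, 5 of 7, 1 of 4 and 2 of 5 in the same order. LTV1 was at 175, 167 and 188 CPM in EW8 and 91.1, 83.2 and 89.3 in TC71, a log2 difference of 1.01 (SE 0.05, edgeR adjusted p = 9.37e-18) and the only member past a fold of 2, against 16.7% of all genes. UTP20 was at 246, 239 and 238 CPM in EW8 and 125, 123 and 120 in TC71 (0.97, SE 0.04, edgeR adjusted p = 2.71e-20), and NPM1 differed by 0.88 (SE 0.04, edgeR adjusted p = 4.17e-20). None of these libraries overlapped between the lines. RRP1 was lower in EW8, by −0.55 (SE 0.05, edgeR adjusted p = 6.00e-11), with 87.0, 99.4 and 92.6 CPM against 134, 144 and 131, and RRP1B by −0.37 (SE 0.04, edgeR adjusted p = 2.70e-10). PPAN had −0.30 (SE 0.11, edgeR adjusted p = 0.0208), a call that was lost when replicate 2 or 3 of EW8 or replicate 1 or 2 of TC71 was left out. Without replicate 3 of EW8 at 0 h, 5 members were called lower in place of 9, namely NOP14, RRP1, RRP1B, MRTO4 and NOLC1.

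Levels were compared between genes only per length, as RPKM on the annotated canonical transcript. NPM1 (1569 ± 84.8 RPKM in EW8 and 851 ± 26.2 in TC71 at 0 h, SD, n = 3) and NCL (1022 ± 30.2 and 643 ± 2.66) stood above all other members in both lines. NOP56 (304 ± 2.35) and FBL (301 ± 4.97) followed in EW8 and did not differ beyond their spread, and in TC71 FBL (294 ± 4.63) was above NOP56 (246 ± 1.44). The lowest RPKM at 0 h was that of PPAN, 3.61 ± 0.0900 in EW8 and 4.44 ± 0.392 in TC71.

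Of the members 9 are hosts of annotated small nucleolar RNAs, which lie inside the gene on its strand, from 8 in TAF1D and 6 in GNL3 to 2 each in DKC1, TSR1 and PPAN. All 9 hosts were downregulated in TC71, and in EW8 6 were downregulated and TAF1D was upregulated. Among the 42 members without one, 33 were downregulated in TC71, and 29 were downregulated and 8 upregulated in EW8. The median log2 fold changes were −0.31 for hosts and −0.20 for the others in TC71, and −0.33 and −0.26 in EW8. Polyadenylated RNA was sequenced, so these values describe the host messages and not the small RNAs.

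A further 104 genes of the pathway that are no members were taken from general knowledge, and 100 of them could be tested. In EW8 43 were downregulated and 31 upregulated, against 31.6% and 37.0% of all genes, and in TC71 44 and 9, against 19.2% and 22.9%, with median log2 fold changes of −0.05 and −0.10. The 9 of the snoRNP core differed from the members of that class. In EW8 2 were downregulated and 5 upregulated (median 0.12), and in TC71 2 and 2 (median 0.02). The EW8 medians of the other classes were −0.08 for small-subunit processing, −0.05 for large-subunit assembly and −0.09 for RNA polymerase I. At 0 h 71 of the 100 were higher in EW8 than in TC71 and 14 lower, against 32.8% and 32.9%. With total counts 28 were called lower and 43 higher in EW8, against 24.4% and 43.6%, and 32 lower and 15 higher in TC71, against 14.2% and 28.0%. In EW8 the largest falls were those of the processome genes FCF1 (−0.78) and IMP3 (−0.76) and of TAF1B (−0.74), and the largest rises those of TAF1A (1.52), UTP23 (1.11) and RRN3 (0.99). TAF1A and TAF1B encode, like TAF1D, subunits of SL1, and RRN3 the factor that makes RNA polymerase I competent to initiate. Each of the 3 rises and 3 falls also passed the test in TC71 in the same direction, with 0.46 for TAF1A, 0.24 for UTP23, 0.14 for RRN3, −0.34 for FCF1, −0.17 for IMP3 and −0.30 for TAF1B. In TC71 the largest falls were those of DDX47 (−1.14, on 11 to 44 counts per library), RRP15 (−0.48) and POLR1G (−0.47), and ZNF622, a late large-subunit factor, rose by 0.37.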

How the data were processed

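Polyadenylated RNA of 12 libraries was sequenced with stranded mRNA libraries as paired-end reads. Per the submitters' processing notes, reads were checked with FastQC and mapped to hg38 with STAR. The authors deposited raw counts per gene without normalization, as whole numbers in 1 column per library, with at least 21 counts per gene over all libraries. The counting tool, annotation and strand setting were not given in the sources used here.

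Testing of the deposited counts used edgeR 4.0.16 (R 4.3.3) after a filterByExpr filter with a minimum count of 10 and a minimum total of 15. TMM factors and a robust quasi-likelihood fit with group means followed, with no replicate block. The 48 h groups were set against 0 h within each line, the resulting changes against each other, and EW8 against TC71 at 0 h. P-values were adjusted by Benjamini-Hochberg across 16515 genes, and a gene was called at an adjusted p below 0.05. Changes are log2 fold changes with the SE of the fit, and the biological coefficient of variation was 4.17%. Replicates differed by more than sampling noise (2.06 to 9.57 chi-square units per gene).

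Counts of 16515 genes were simulated with a common dispersion and a small set of changed genes in EW8. The test recovered 30 of 50 genes changed 1.25-fold (60.0%), 33 of 49 at 1.5-fold (67.3%), 41 of 47 at 2-fold (87.2%) and 46 of 48 at 4-fold (95.8%). Of the unchanged genes 7 were called in EW8. Far more genes were called in the data than were changed here, so these shares do not carry over to the data.

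The members, their classes, the lists and the tests were chosen with earlier results of these data known. Values in every library are given for up to 2 called members with the largest fall and rise per class and line, and up to 3 per direction for the difference and for 0 h. Of the other pathway genes, up to 3 per line and direction are named, and a few genes outside this rule were named after their values were seen. Alternatives were DESeq2 1.42.0, other scalings, no filter, each line alone, the replicate block, stricter calls, other classes, leaving out each library and, added later, leaving out members with exons that overlap another gene. Lengths, overlaps and small nucleolar RNAs came from GENCODE release 44. Plots used matplotlib 3.10.9 (Python 3.11.15).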

Additional observations from a re-analysis of the deposited data

Results flagged for a closer look

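For 30 of the 51 members the EW8 and TC71 responses were unequal in a direct test (edgeR adjusted p below 0.05), and every value here is the EW8 log2 fold change minus that of TC71. Such differences were also common among all genes tested, of which 22.4% had a called value below 0 and 25.7% above 0. In small-subunit processing the difference was −0.40 for UTP18, −0.29 for TBL3, −0.28 for IMP4, −0.24 for WDR43 and −0.18 for NOP14, and 0.95 for RRP12, 0.65 for DDX10, 0.51 for UTP14A, 0.39 for RIOK1, 0.21 for NOL6 and 0.19 for LTV1. In large-subunit assembly it was −0.40 for NOP16, −0.22 for BRIX1 and −0.20 for WDR12, and 0.46 for PPAN, 0.34 for WDR74, 0.34 for RRP1 and 0.15 for NOP2. The snoRNP core had −0.53 for DKC1, −0.42 for NHP2, −0.41 for FBL, −0.19 for NOP10 and −0.12 for NOP56, with 0.20 for NOP58. Among the RNA polymerase I genes the values were −0.77 for UBTF, 0.77 for TAF1D and 0.16 for POLR1A, and among the multifunctional genes −0.94 for NCL, −0.73 for NPM1 and 0.32 for DDX21.

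Of the other pathway genes named, which were picked for large changes, 7 also differed between the lines, with 1.06 for TAF1A, 0.87 for UTP23, 0.85 for RRN3, 0.41 for ZNF622, −0.59 for IMP3, −0.45 for TAF1B and −0.44 for FCF1. Among all 100 other pathway genes tested, 16 had a called difference below 0 and 33 above 0, against 22.4% and 25.7% of all genes tested. The weakest of all these differences were those of NOP2 (edgeR adjusted p = 0.0491) and TBL3 (edgeR adjusted p = 0.0481). The calls of NOP2, TBL3, LTV1, POLR1A, PPAN, NOP56, BRIX1, NOP10 and NOP58 were each lost when at least 1 of the libraries was left out. With total counts those of NOP14 (−0.11, edgeR adjusted p = 0.0978), WDR12 (−0.13, edgeR adjusted p = 0.0579), TBL3, BRIX1, NOP56 and NOP10 were lost. Groups of 3 libraries were not examined for single outlying libraries.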

How the results depend on the processing

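No class median of the EW8 or TC71 response changed sign under the alternatives run. Of the members' calls, total counts removed 7 of 44 in EW8, 7 of 43 in TC71, 11 of 47 at 0 h and 6 of 30 for the difference, and added 3, 0, 2 and 5, and among called members RRP1B in EW8 and UTP14A at 0 h turned in sign. Upper-quartile factors removed 1, 0, 6 and 2, and DESeq2's test 0, 0, 1 and 2. Leaving out 1 library removed at most 2, 4, 6 and 6.

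A fold above 2 as a further condition left 2 lower and 1 higher member in EW8, 0 and 0 in TC71, 0 and 0 for the difference, and of the other pathway genes 0 lower and 2 higher in EW8 and 1 lower and 0 higher in TC71. These counts of 0 in edgeR were also 0 at an unadjusted p below 0.05 and in DESeq2. Total counts gave 10 members with a lower response in EW8 than TC71, 28 other pathway genes lower in EW8 and 15 higher in TC71. The last count was 5 with upper-quartile factors, with the replicate block and at an adjusted p below 0.01. Leaving out members with overlapping exons left 0 members higher in TC71, as RRP12 was left out.

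The block of replicate numbers within each line gave 34 lower and 9 higher members in EW8, 38 and 1 in TC71 and 12 and 11 for the difference. It removed the calls of RRP1B in EW8, of NOP14, UTP4, RRP1B and GRWD1 in TC71 and of TBL3, LTV1, NOP2, BRIX1, NOP56, NOP10 and POLR1A for the difference, and across lines those of TBL3 and GNL3 at 0 h. Same-numbered libraries did not deviate together (correlations of −0.138 to −0.015), so the numbers were not taken to pair them.

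Leaving out each library in turn gave 34 to 36 lower and 7 to 9 higher members in EW8, 38 to 43 lower and 1 higher in TC71, 3 to 5 past a fold of 2 in EW8, 35 to 38 higher and 5 to 10 lower in EW8 at 0 h, and 13 to 19 lower and 10 to 13 higher responses in EW8. The other pathway genes had 43 to 49 lower and 27 to 32 higher in EW8 and 38 to 48 lower and 6 to 10 higher in TC71. Class medians ranged in EW8 from −0.27 to −0.21 for small-subunit processing, −0.25 to −0.18 for large-subunit assembly, −0.55 to −0.51 for the snoRNP core, −0.29 to −0.22 for RNA polymerase I and −0.48 to −0.38 for multifunctional genes. In TC71 the ranges were −0.17 to −0.15, −0.24 to −0.22, −0.26 to −0.18, −0.26 to −0.22 and −0.27 to −0.23 in the same order.

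Class medians moved by more than the spread of library medians as follows. With total counts they were −0.10 for small-subunit processing, −0.063 for large-subunit assembly, −0.39 for the snoRNP core, −0.12 for RNA polymerase I and −0.29 for multifunctional genes in EW8, and −0.11, −0.17, −0.15, −0.19 and −0.20 in TC71. Upper-quartile factors gave −0.27, −0.23, −0.55 and −0.28 for the first 4 classes in EW8 and −0.18, −0.25, −0.23, −0.26 and −0.28 for all 5 in TC71. With each line fitted alone, large-subunit assembly had −0.22 and the snoRNP core −0.54 in EW8. Reassigning the multifunctional genes gave −0.23 for large-subunit assembly, −0.40 for the snoRNP core and −0.41 for RNA polymerase I in EW8. Without overlapping genes the medians were −0.28 for large-subunit assembly and −0.68 for multifunctional genes in EW8, and −0.23, −0.20, −0.28 and −0.22 for small-subunit, large-subunit, RNA polymerase I and multifunctional genes in TC71. The cause of these shifts was not tested beyond the change of scaling or of genes. Of all genes called, 53.9% were higher in EW8 and 54.3% in TC71, and with total counts 64.1% and 66.4%. At 0 h 49.9% were higher in EW8, and 36.0% with total counts or 41.8% with upper-quartile factors.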
